A study of Homo sapiens with 5 samples.

Results

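CCNO-positive cells were cell barcodes of days 22, 24 and 26 of GnRH neuron differentiation that carried at least 2 unique molecular identifiers (UMIs) of CCNO, the gene of cyclin O. They were taken from barcodes with at least 1500 UMIs, at least 1000 genes and under 20% of UMIs on mitochondrial genes. There were 80 such cells among 29709 kept cells of the 3 days, with 70 at D22 and 10 at D24, and D26 had 0. The cells came from WA09, a wild type human embryonic stem cell line, differentiated in culture by dual SMAD inhibition, then FGF8, then the Notch inhibitor DAPT from day 21, and these steps were common to the 3 days and to both groups compared. The cultures were frozen and thawed on the way, and each day was 1 droplet library without a replicate. The kept cells of the same day without a CCNO UMI, 9333 at D22 and 9036 at D24, served as the comparison and are called other cells below. The cells were chosen by their CCNO counts, so every difference from the other cells is a description and carries no test.

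Cyclin O is an atypical cyclin needed for multiciliated cells, which stop dividing and then build many centrioles and many motile cilia. In that programme GMNC and MCIDAS act upstream with E2F factors, TP73 and FOXJ1 switch on cilia genes, and CCNO, CDC20B and DEUP1 take part in making centrioles. Some of these genes are also used outside multiciliated cells, and TP73 marks Cajal-Retzius neurons of the developing cortex. CDKN1A encodes p21, an inhibitor of cyclin-dependent kinases and a classic target of p53 and its relatives.

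The CCNO gene (ENSG00000152669) lies on chromosome 5 from 55231152 to 55233608 on the minus strand of GRCh38, by GENCODE 44. MCIDAS is its neighbour at 55219564 to 55227315, and CDC20B follows at 55112971 to 55173177, all on the same strand. The hairpins of 3 microRNAs, MIR449A, MIR449B and MIR449C, sit inside CDC20B and overlap 0 of its annotated exons, so they are intronic. A further gene named below, C11orf88, starts 1263 bases after the end of MIR34C on chromosome 11. Mature sequences of both microRNA families, from RefSeq on GRCh38.p14, are shown because CDC20B and C11orf88 were among the genes highest in these cells. Of those shown, hsa-miR-34a-5p comes from chromosome 1 and not from beside C11orf88. The mature form of MIR34C is not shown. Capitals mark the seed, bases 2 to 8.
hsa-miR-449a: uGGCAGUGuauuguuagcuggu
hsa-miR-449b-5p: aGGCAGUGuauuguuagcuggc
hsa-miR-34a-5p: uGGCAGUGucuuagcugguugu
hsa-miR-449c-5p: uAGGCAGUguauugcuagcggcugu
hsa-miR-34b-5p: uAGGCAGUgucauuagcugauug
The first 3 share the seed GGCAGUG, and the last 2 share AGGCAGU, the same letters set back by 1 base. The assay counts polyadenylated RNA and gives no level for a mature microRNA.

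The RefSeq promoters of CCNO and of CFAP126, a cilium gene that was high in the same cells, both held a match to the X-box, the motif bound by RFX factors. It was searched as GTTGCCNNGNAAC and GTTGCCNNNGNAAC on both strands, letters chosen after these promoters had been seen. Either form was found in 283 of 35116 promoters of 300 bases, or 0.806%. The 250 bases before each start are shown with the match in capitals, at chr5:55233609-55233858 for CCNO and at chr1:161367877-161368126 for CFAP126, both on the minus strand.
CCNO: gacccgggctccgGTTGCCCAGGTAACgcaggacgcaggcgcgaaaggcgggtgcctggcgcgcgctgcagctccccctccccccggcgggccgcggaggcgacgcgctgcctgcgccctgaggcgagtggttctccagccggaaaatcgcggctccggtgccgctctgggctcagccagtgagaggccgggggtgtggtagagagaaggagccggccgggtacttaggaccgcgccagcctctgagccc
CFAP126: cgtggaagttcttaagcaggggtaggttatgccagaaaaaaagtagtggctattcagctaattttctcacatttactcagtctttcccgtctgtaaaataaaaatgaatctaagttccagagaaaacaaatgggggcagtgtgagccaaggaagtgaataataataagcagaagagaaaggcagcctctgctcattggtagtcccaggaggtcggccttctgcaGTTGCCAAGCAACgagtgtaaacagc
The match ended 223 bases before the start of CCNO and 13 bases before the start of CFAP126. Of the 15 genes listed below as highest at both days, 13 had a promoter in the table and 1, CFAP126, held the motif.

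The day 22 library held 9539 kept cells with a median of 12183 UMIs, D24 held 9110 with 7180.5 and D26 held 11060 with 8486. CCNO-positive cells were 0.734% of kept cells at D22 (95% Clopper-Pearson interval 0.572 to 0.926%) and 0.110% at D24 (interval 0.0527 to 0.202%). At D26 they were 0 of 11060, which allows a share of up to 0.0271% by the limit of 3 counts used here for a count of 0, and of up to 0.0333% by the Clopper-Pearson interval. Exactly 1 CCNO UMI was found in 136 cells (1.43%) at D22. The same held for 64 cells (0.703%) at D24, and D26 had 85 (0.769%). Intervals and limits cover counting error only. The order of the days follows libraries that differ in depth, and day and library cannot be told apart. Of the kept barcodes, 26 to 32 were shared by any pair of days, and 0 of these belonged to a CCNO-positive cell.

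**Figure D1:**
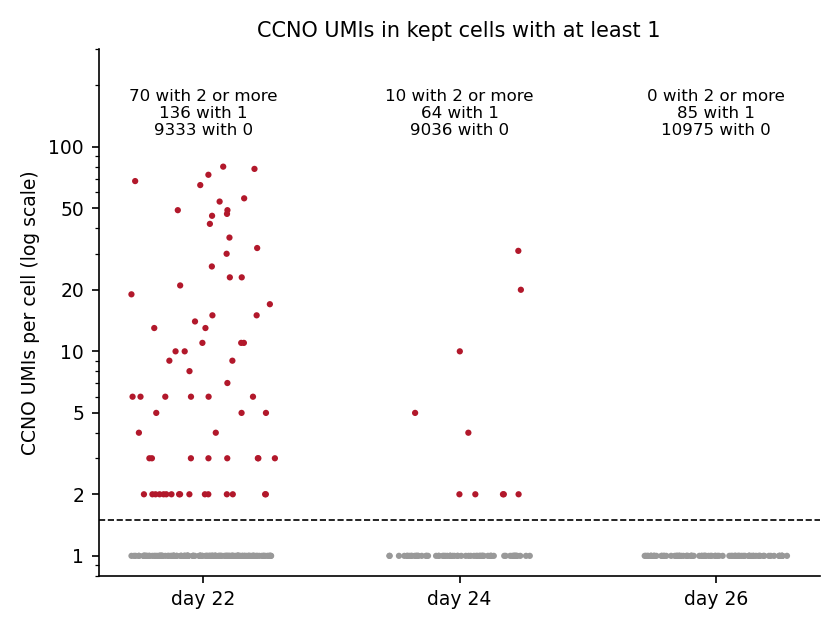
CCNO UMIs per kept cell (log scale) on each day, with cells at 0 given as a count; red points are CCNO-positive cells and the dashed line is the threshold. Counts reached 80 UMIs at D22 and 31 at D24, and no cell of D26 exceeded 1.

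The 70 cells of D22 held 2 to 80 CCNO UMIs each, with a median of 6.5, which added up to 1205 UMIs or 1192 CPM (UMIs scaled to 1e6 per group; Poisson interval 1126 to 1261). The 10 cells of D24 held 2 to 31, with a median of 3, and 795 CPM (interval 631 to 990). Just inside the threshold, 16 cells of D22 held 2 UMIs, and just outside it 136 held 1. CDC20B was at 6.1 CPM in the cells with 1 UMI, between 0.0780 CPM in the other cells and 19.4 CPM in the 24 cells with 2 or 3 UMIs. E2F7 was at 21.9 CPM in the cells with 1 UMI, nearer to the 12.1 CPM of other cells than to the 211 CPM of the cells with 2 or 3. CCNO-positive cells of D22 were of like depth to the other cells, with medians of 13174 and 12159 UMIs and of 3.39% and 3.25% mitochondrial UMIs. Those of D24 were deeper than the other cells, with medians of 10223.5 and 7174 UMIs, and had more mitochondrial UMIs, 5.81% against 3.96%; the part of either in the D24 values was not tested. A doublet score of at least 0.25 was reached by 4 of 70 CCNO-positive cells (5.71%) and by 4.30% of other cells at D22, and by 0 of 10 at D24.

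Genes were compared by their summed UMIs in CPM, as log2 ratios with 10 CPM added to both groups, which understates the change of low genes. A gene was counted as higher or lower at 2-fold or more on that scale, and CCNO itself was left out. At D22, 144 of 8318 genes (1.73%) were higher and 94 (1.13%) lower in CCNO-positive cells. At D24, where 1 UMI in the 10 cells alone makes 9.94 CPM, 654 of 7989 genes (8.19%) were higher and 1441 (18.0%) lower. A gene with 0 UMIs in CCNO-positive cells and at least 10 CPM in other cells is always counted as lower. Of 7173 genes compared at both days, 65 (0.906%) were higher at both and 17 (0.237%) lower at both. A gene under 10 CPM in other cells enters these counts only when CCNO-positive cells are above that level, which for low genes nearly sets the call, so counts are also given for genes with at least 10 CPM in other cells. Among 7374 such genes at D24, 262 (3.55%) were higher and 1441 (19.5%) lower. Of the 144 genes higher at D22, 61 were among them, and 26 of these were higher and 4 lower at D24.

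**Figure D2:**
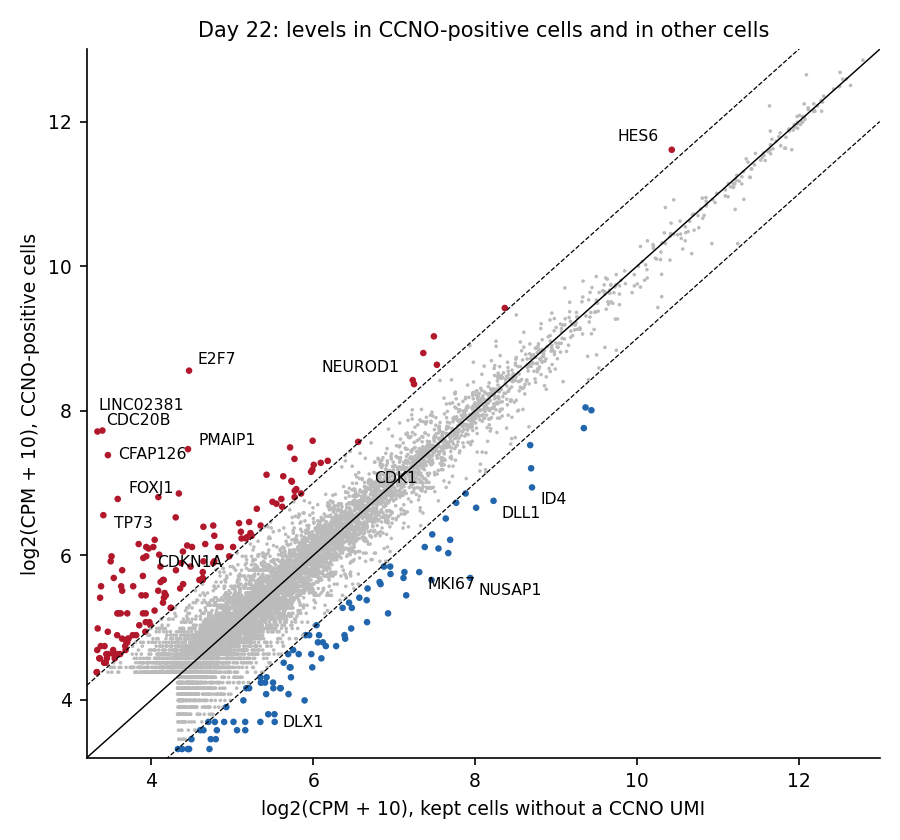
Levels of 8318 genes at D22 as log2(CPM + 10) in CCNO-positive cells against other cells; each point is a gene, the solid line marks equal levels and the dashed lines 2-fold. CDC20B, LINC02381, E2F7 and CFAP126 stand farthest above the line, and NUSAP1, MKI67, ID4 and DLL1 lie below it.

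The 4 markers given for these cells were higher at D22, but they had been chosen with earlier results of these data known. All 4 lay under 10 CPM in other cells and were compared because of their level in CCNO-positive cells. CDC20B, a relative of the mitotic activator CDC20, had 202 UMIs in 46 of 70 cells, 0 to 15 per cell with a median of 2, and stood at 200 CPM (interval 173 to 229) against 0.0780 CPM in other cells. CFAP126, also known as Flattop, was at 157 CPM in them and 1.02 CPM in other cells. Its log2 ratio was 3.92, with an interval of 3.71 to 4.14 that, like all those of log2 ratios here, comes from the Poisson bounds of the CCNO-positive cells. TP73 was at 84.1 CPM against 0.601, with 0 to 5 UMIs per cell, and CDKN1A was at 53.4 CPM against 5.31, with 0 to 6. Only CDKN1A among these was found in fewer than 50% of the cells: it had 54 UMIs in 26 of them (37.1%). All 4 markers together were seen in 12 of 70 CCNO-positive cells and in 0 of 9333 other cells, exactly 3 in 15 and 6, and none in 8 and 8793.

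With every cell thinned to 1500 UMIs, CDC20B was found in 27.1% of CCNO-positive cells (interval 17.2 to 39.1%) and in 0% of the 970 other cells with at least 2 UMIs of the glutamatergic markers TBR1 and PPP1R17, whose median depth was 11656.5 UMIs. Without thinning these shares were 65.7% and 0.103%. CDKN1A was found in 5.71% of the thinned CCNO-positive cells (interval 1.58 to 14%) and in 0.928% of the thinned glutamatergic cells, with 37.1% and 4.12% before thinning. CDKN1A was thus near the level of 1 UMI per cell, and its summed level is the firmer value.

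At D24 the same 4 markers were also at least 2-fold higher, and there too they were compared because of their level in CCNO-positive cells. The 10 cells held 26 CFAP126 UMIs in 7 cells, 12 CDKN1A UMIs in 5, 9 CDC20B UMIs in 4 and 4 TP73 UMIs in 2. The levels were 258, 119, 89.5 and 39.8 CPM, against 3.15, 5.2, 0.0287 and 0.891 CPM in other cells. The log2 ratio of CDKN1A was 2.05 (interval 1.71 to 2.38) at D22 and 3.09 (interval 2.24 to 3.84) at D24. Its level in other cells was alike on both days, and the CCNO-positive cells of D24 rest on 12 UMIs. Against the 426 other cells of D24 in the neuronal precursor gate described below, the D24 ratio was 1.81.

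Regulators of the multiciliated programme differed in how they entered the comparison. Of 12 listed, 11 were compared at D22, and 6 were higher and 0 lower, against 1.73% and 1.13% of all genes. The 6 were GMNC, MCIDAS, FOXJ1, MYB, and TP73 and CDC20B given above, the last of which also takes part in making centrioles. All 6 lay under 10 CPM in other cells and were compared because of their level in CCNO-positive cells. Of the 5 with at least 10 CPM in other cells, 0 were higher and 0 lower. GMNC, which acts at the top of the cascade, was at 50.5 CPM against 1.29 and was found in 25 of 70 cells. MCIDAS was low, at 10.9 CPM, with 11 UMIs in 9 cells, but the 9333 other cells held 0.00780 CPM. FOXJ1, the forkhead factor of motile cilia, was at 99.9 CPM against 1.99, in 37 cells. MYB, a factor active early in multiciliated cells, was at 19.8 CPM against 1.93.

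Of the remaining 6 regulators of that list, 5 lay near the level of the other cells. E2F4 had 13.9 CPM against 18.3, E2F5 39.6 against 40.6, RFX2 10.9 against 15.1 and RFX3 85.1 against 83. TFDP1, the partner of E2F factors, was at 20.8 CPM against 27.6. FOXN4 was below 10 CPM in both groups and was not compared, at 6.93 CPM against 1.59 and 7 UMIs in 5 cells. At D24, 3 of 8 regulators were higher and 1 lower, against 8.19% and 18.0% of all genes. The 3 were CDC20B, TP73 and FOXJ1, all compared because of their level in CCNO-positive cells. Of the 5 with at least 10 CPM in other cells, 0 were higher and 1 lower. This was E2F4, with 0 UMIs in the 10 cells against 10.0 CPM in other cells, and a count of 0 at that level is always called lower. GMNC also had 0 UMIs at D24, which allows up to 29.8 CPM at 3 counts.

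Of 16 genes listed for building centrioles, which did not include CCNO and CDC20B, 12 were compared at D22. PLK4, the kinase that starts centriole duplication, was at least 2-fold higher, at 35.6 CPM against 6.96. It was 1 of the 12, against 1.73% of all genes, and 0 of the 9 with at least 10 CPM in other cells were higher. STIL and CEP152, which act with PLK4, were at 16.8 CPM against 4.80 and 24.7 CPM against 9.25, log2 ratios of 0.86 and 0.85 that missed 2-fold on this scale. Like PLK4, they were compared because of their level in CCNO-positive cells. Against other cells of the neuronal precursor gate described below, their ratios were 1.06 and 1.27. There 3 of 11 genes were higher, against 1.64% of all genes. STIL and CEP152 lay under 10 CPM in the gate too and were again compared because of their level in CCNO-positive cells. DEUP1, the core of the deuterosome on which multiciliated cells make most centrioles, had 1 UMI in the 70 cells, and CCDC78, a further deuterosome gene, had 0.

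Many structural genes of motile cilia were higher. Of 49 axoneme genes listed, 27 were compared at D22, and 13 were at least 2-fold higher and 0 lower, against 1.73% and 1.13% of all genes. Of the 27, 19 entered only by their level in CCNO-positive cells and could not be called lower, and 10 of the 13 were among these. Of the 8 with at least 10 CPM in other cells, 3 were higher and 0 lower, against 0.811% and 1.21% of the 7771 such genes at D22. Behind CFAP126, the highest ratios were those of PIFO at 61.3 CPM against 4.34, FAM183A at 64.3 against 6.46, CFAP52 at 26.7 against 1.95 and ENKUR at 40.6 against 7.66. The radial spoke genes RSPH1 and RSPH4A were at 30.7 CPM against 7.67 and 67.3 against 17.4, and the dynein heavy chain DNAH9 was at 44.5 against 14.8. At D24, 27 of the 49 were compared, and 19 were higher and 0 lower, against 8.19% and 18.0% of all genes, but 13 of the 19 entered only by their level in CCNO-positive cells. They included RSPH1 with 12 UMIs and FAM183A with 16, and 15 of the listed genes had 0 UMIs in the 10 cells. Of the 12 with at least 10 CPM in other cells, 6 were higher and 0 lower at D24.

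Other axoneme genes had few or no UMIs in the 70 cells of D22. DNAI1, a dynein arm gene like DNAH9, had 1 UMI, DNAI2 and the ciliary tip gene SNTN had 0, C20orf85 had 2 and CAPS had 1. A count of 0 in the 70 cells allows up to 2.97 CPM at 3 counts. The list sums were 1494 CPM for the axoneme genes in CCNO-positive cells and 702 CPM in other cells at D22, and 2207 against 572 CPM at D24. Of the 77 genes of the 3 multiciliated lists together, 50 were compared at D22 and 43 at D24, and 20 and 23 were higher, against 1.73% and 8.19% of all genes, and 0 and 1 lower. Of the genes higher, 17 at each day were compared only because of their level in CCNO-positive cells. Of those with at least 10 CPM in other cells, 3 of 22 were higher at D22 and 6 of 24 at D24, against 0.811% and 3.55% of all such genes.

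**Figure D3:**
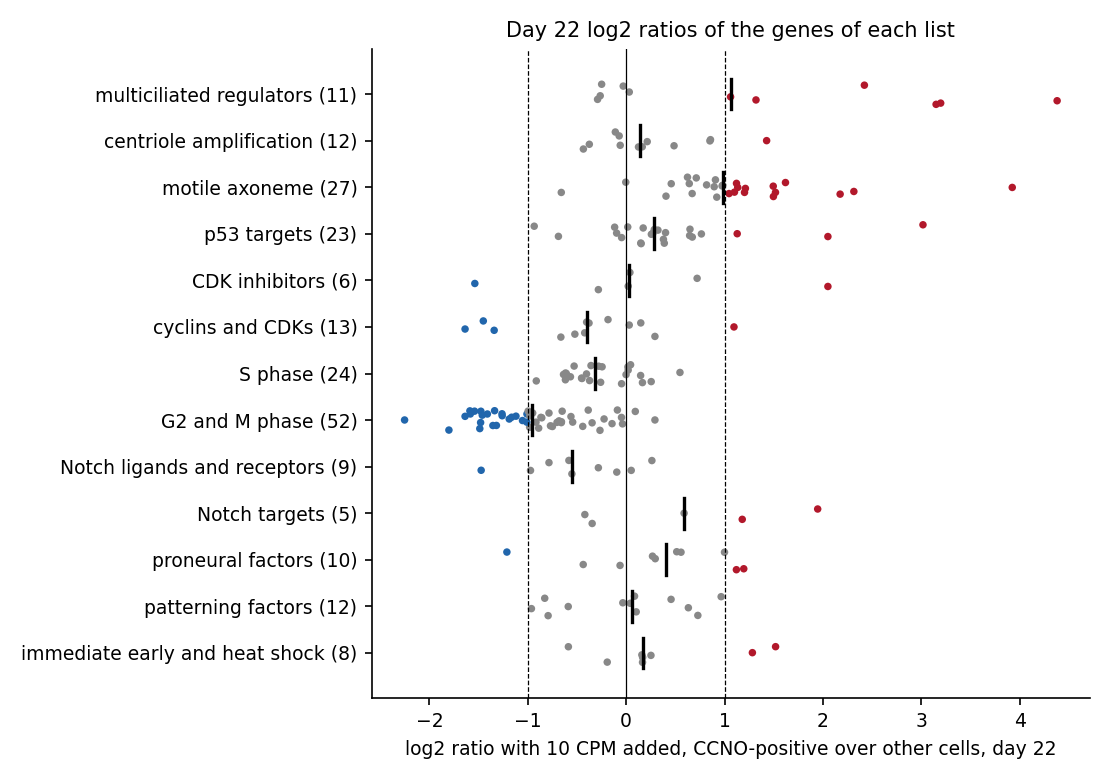
Log2 ratios at D22 (10 CPM added) of the genes of each list, CCNO-positive over other cells; points are genes, bars are medians, dashed lines mark 2-fold and brackets give the genes compared. Regulators and axoneme genes, most of them compared because of their level in CCNO-positive cells, reach furthest to the right and G2 and M phase genes furthest to the left.

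Outside those lists, the transcriptional repressor E2F7 was found in more CCNO-positive cells than any of the 4 markers. It had 370 UMIs in 63 of 70 cells at D22, with 0 to 23 per cell and a median of 4, and stood at 366 CPM against 12.1 (log2 ratio 4.09, interval 3.94 to 4.23). At D24 it had 31 UMIs in 6 cells, or 308 CPM against 1.77. LINC02381, a long noncoding RNA on chromosome 12 that lies opposite part of SMUG1, was at 202 CPM against 0.515 at D22 and 89.5 against 0.489 at D24.

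By the smaller of its 2 log2 ratios, E2F7 led the genes higher at both days, ahead of CFAP126, CDC20B, LINC02381, SMIM32, PIFO, FAM81B, TP73, CCDC146, FAM183A, BHMT, AGPAT2, CDKN1A, C11orf88 and FOXJ1. Each of these lay under 10 CPM in other cells at D24, and each but E2F7 at D22. There they were compared because of their level in CCNO-positive cells, and being high at both days is set by the rule. At D24, FOXJ1 rested on 3 UMIs, and TP73, BHMT and AGPAT2 on 4 each. SMIM32, a small membrane protein, was at 53.4 CPM against 1.37 at D22. BHMT, which remethylates homocysteine, was at 41.6 CPM against 1.59, with its 42 UMIs in 14 cells, and AGPAT2, an enzyme of phospholipid synthesis, was at 59.4 against 6.26. C11orf88, the gene beside MIR34B and MIR34C, was at 32.6 CPM against 0.312 at D22 and at 109 against 0.201 at D24, where 11 UMIs lay in 5 cells. TP73 overlaps WRAP73 on the other strand, CCDC146 overlaps GSAP and FGL2, and CDC20B overlaps GPX8. GPX8 itself was at 17.8 CPM against 23.5 at D22.

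Further genes stood high at D22, chosen here after their values were seen. PMAIP1 was at 167 CPM against 11.9, PAQR4 at 102 against 6.98, USP13 at 82.1 against 9.70 and MYBL1, a relative of MYB, at 58.4 against 5.62. POMC was at 106 CPM against 10.2, but 3 cells held 74.8% of its UMIs and only 14 cells had any.

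**Figure D4:**
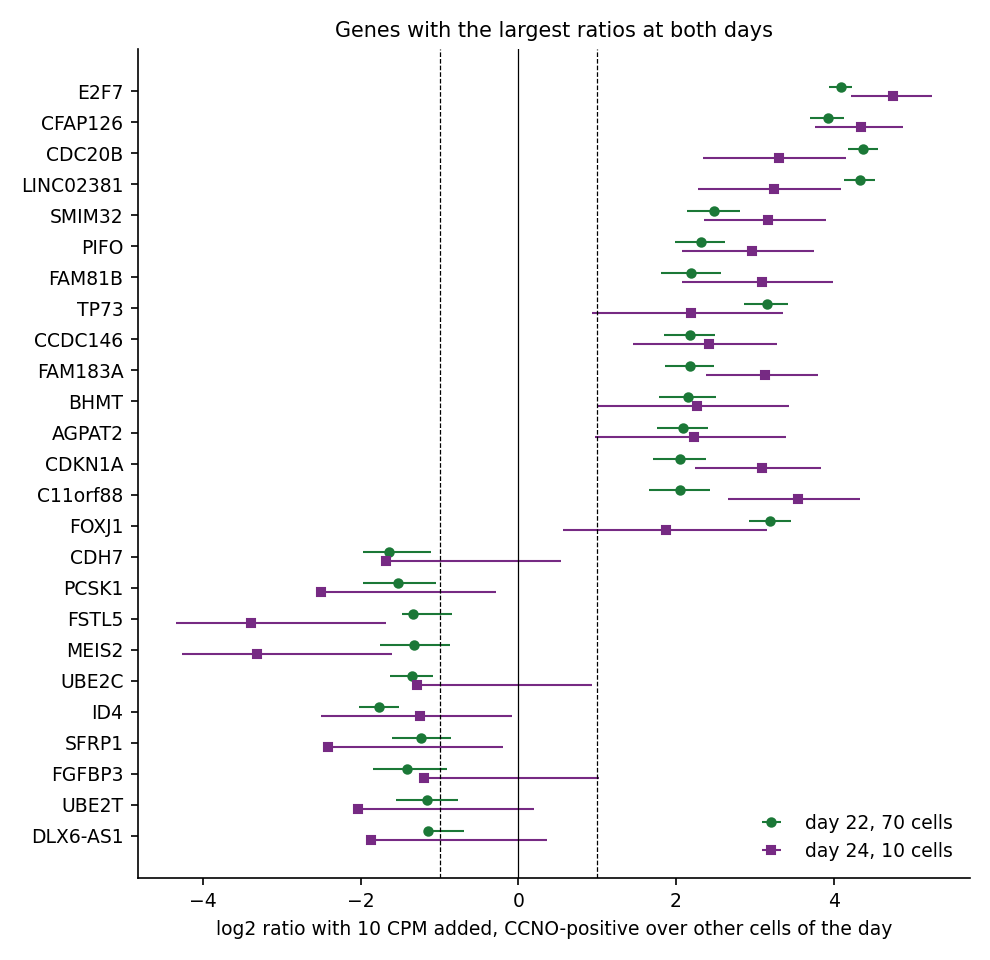
Log2 ratios (10 CPM added) of the 15 genes highest and the 10 lowest at both days, CCNO-positive over other cells of the same day; circles are D22, squares D24, and bars are 95% counting intervals of the CCNO-positive cells. The bars of D24 are wide because it had 10 cells, and among the lower genes 5 of 10 reach 0 or beyond. The 15 highest genes lay under 10 CPM in other cells at D24 and were compared there because of their level in CCNO-positive cells.

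The neighbours of CCNO on chromosome 5 differed by gene. CDC20B and MCIDAS were higher, as given above. On the other side CCNO-DT, a divergent transcript, had 0 UMIs in CCNO-positive cells at both days. DHX29 was at 96.0 CPM against 77.0 at D22 and MTREX at 72.2 against 51.1.

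Of 23 p53 targets compared at D22, 3 were at least 2-fold higher and 0 lower, against 1.73% and 1.13% of all genes, with a median log2 ratio of 0.29 against -0.01. Of the 18 with at least 10 CPM in other cells, 2 were higher, against 0.811% of such genes, and CDKN1A is not among them. Against other cells of the neuronal precursor gate described below, 2 of 22 were higher, CDKN1A and PMAIP1, against 1.64% of all genes. Only BTG2 was lower there, at -1.06, against 0.269% of all genes. CDKN1A and PMAIP1 lay under 10 CPM in the precursor gate, at 5.32 and 9.72, and were compared because of their level in CCNO-positive cells. Against all other cells, the summed level of the p53 targets was 2264 CPM against 1682. The 3 higher in that comparison were CDKN1A, PMAIP1, which encodes the death protein NOXA, and GADD45A, a stress and growth arrest gene. PMAIP1 had 169 UMIs in 42 of 70 cells, with a maximum of 11, and GADD45A was at 148 CPM against 62.4. MDM2, the ubiquitin ligase of p53, was at 94.0 CPM against 56.5, BAX at 131 against 102, CCNG1 at 297 against 267, SESN1 at 8.90 against 8.81 and BTG2 at 18.8 against 45.0. At D24, 9 of 20 were higher and 0 lower, against 8.19% and 18.0% of all genes, among them CDKN1A, BAX and RPS27L, with a median log2 ratio of 0.91 against -0.13 over all genes and a sum of 2286 CPM against 1064. Of the 15 with at least 10 CPM in other cells, 5 were higher at D24, against 3.55% of all such genes. Against the precursor gate of D24, 4 of 23 were higher and 0 lower, where 582 genes in all were higher and 1359 lower. The share of all genes compared there was not calculated.

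Of 6 CDK inhibitors compared at D22, 1 was higher, CDKN1A, and 1 lower, against 1.73% and 1.13% of all genes. CDKN1A was compared because of its level in CCNO-positive cells. Of the 5 with at least 10 CPM in other cells, 0 were higher and 1 lower. CDKN1C (p57) was at 1662 CPM against 1638, CDKN1B (p27) at 42.5 against 53.9, and CDKN3, a gene of dividing cells, was lower at 16.8 against 67.9.

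Many genes of G2 and M phase were lower at D22. Of 52 genes of G2 and M phase, 22 were at least 2-fold lower (42.3%, against 1.13% of all genes) and 0 were higher, and their summed level was 3342 CPM against 6842. The sum was 5333 CPM in cells with 2 or 3 CCNO UMIs, and 1862, 1800 and 2826 CPM in those with 4 to 9, 10 to 19 and at least 20. At D24, 6 of 24 genes were higher and 3 lower, against 8.19% and 18.0% of all genes, or 3 and 3 of the 20 with at least 10 CPM in other cells, with a median log2 ratio of 0.08 and a sum of 1551 CPM against 1365. Of 24 S phase genes compared at D22, 0 passed 2-fold in either direction, near the shares of all genes, 1.73% higher and 1.13% lower. MKI67, the proliferation marker, was at 44.5 CPM against 149, and its 45 UMIs lay in 3 cells, each with 2 CCNO UMIs, holding 22, 12 and 11. Of these 3 cells, 2 had doublet scores of 0.393 and 0.360. Without the 3, 40 of the 52 genes of G2 and M phase were lower and 0 higher, with a sum of 2055 CPM. Of the 24 S phase genes, 2 were then lower. The 3 cells were left out for MKI67, itself a gene of G2 and M phase, while other cells with MKI67 stayed in. These counts are thus in part set by the removal, and the share of all genes was not calculated for them. All 46 cells with at least 4 CCNO UMIs had 0 MKI67 UMIs, where 31.0% of other cells had at least 1.

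CDK1, the kinase of mitosis, was not lower. It was at 113 CPM against 90.3 and was found in 32 of 70 CCNO-positive cells (45.7%) and in 16.7% of other cells. Of the other cells with CDK1, 1393 of 1562 (89.2%) also had MKI67. Of the CCNO-positive cells with CDK1, 3 of 32 (9.38%) did. In the 46 cells with at least 4 CCNO UMIs, CDK1 had 82 UMIs in 23 cells beside 18 TOP2A UMIs. At D24, CDK1 had 16 UMIs in 6 of 10 cells, or 159 CPM against 4.11, and MKI67 had 0. Of the cyclins, CCNE1, of the entry into S phase, was higher at D22, at 17.8 CPM against 3.01 but in 10 cells, while CCNB1 and CCNB2, of mitosis, were lower, at 58.4 against 177 and 55.4 against 193.

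These levels changed with the amount of CCNO per cell at D22. From cells with 2 or 3 CCNO UMIs, through 4 to 9 and 10 to 19, to cells with at least 20, CDC20B stood at 19.4, 154, 257 and 450 CPM. FOXJ1 stood at 13.9, 75.0, 87.8 and 246 CPM, CFAP126 at 74.9, 83.8, 138 and 344, and PMAIP1 at 66.6, 124, 213 and 314. E2F7 was already at 211 CPM in the 24 cells with 2 or 3 UMIs, and at 556 in the 19 cells with at least 20. PLK4 and MYB were high in the last group, at 110 and 56.8 CPM, and at most 22.1 and 12.5 CPM in the groups with less CCNO. CDKN1A did not follow a steady course, with 36.1, 17.6, 62.7 and 102 CPM, and TP73 stood at 55.5, 70.6, 132 and 106. DLL1 took the opposite course, from 158 to 124, 62.7 and 15.1 CPM, with 290 CPM in other cells. The groups held 24, 15, 12 and 19 cells of near equal depth, with medians from 12744 to 13823 UMIs, and the summed axoneme genes ran from 1129 to 2262 CPM. The summed p53 targets were at 1917, 2096, 2327 and 2841 CPM in the same groups.

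**Figure D5:**
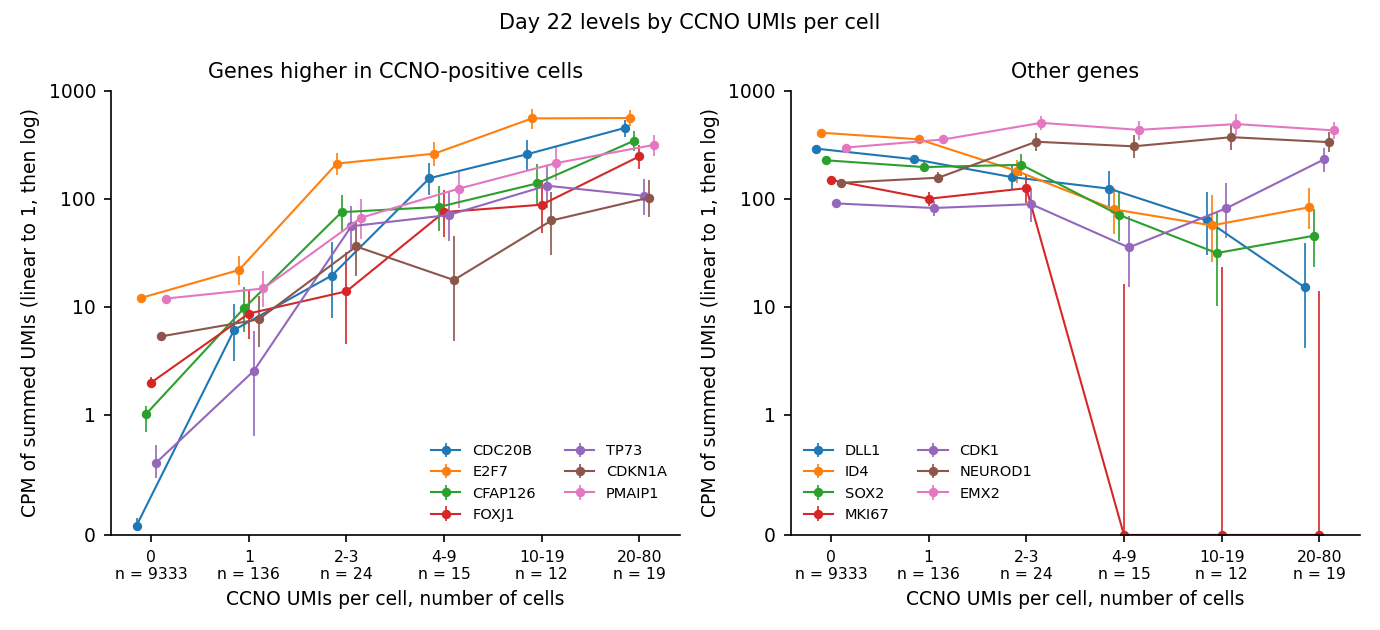
Levels at D22 in CPM (linear to 1, then log) by CCNO UMIs per cell; points are sums over the cells of a group, bars are 95% Poisson intervals and n is the number of cells. CDC20B, E2F7, CFAP126, FOXJ1 and PMAIP1 lie higher with each step to the right, DLL1 is lowest at 15.1 CPM in the last group, and MKI67 is at 0 from 4 UMIs on.

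Over the 70 cells, Spearman's rho of single cell CPM with that of CCNO was 0.78 for CDC20B, 0.66 for FOXJ1, 0.57 for CFAP126 and 0.48 for E2F7. It was 0.26 for CDKN1A, 0.23 for TP73 and 0.24 for GMNC, and near 0 for NEUROD1, NHLH1, HES6 and EMX2, at -0.03, 0.08, 0.01 and -0.09. These cells come from 1 library and were chosen by CCNO, the value they are ordered by here and in the groups above. The values describe them without a test. TP73 and CDC20B were seen together in 30 cells, in 16 with CDC20B alone, 12 with TP73 alone and 12 with neither. This overlap is near what the share of cells with each gene alone would give, 60.0% for TP73 and 65.7% for CDC20B.

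Most of the D22 cells passed a gate of neuronal precursors. At least 2 UMIs of NEUROD4 and NHLH1 summed, the neuronal precursor gate, were found in 62 of 70 CCNO-positive cells at D22 (88.6%, interval 78.7 to 94.9%) and in 49.9% of other cells. HES6, an inhibitor of HES1 that promotes neurogenesis, was at 3115 CPM against 1370, and NEUROD1, a proneural factor of neurons past their last division, was at 333 against 140. EBF3 was at 65.3 CPM against 24.6, NHLH1 at 256 against 123 with a log2 ratio just under 2-fold, and NEUROG1 at 609 against 495. Of 10 proneural factors compared, 2 were higher, NEUROD1 and EBF3, and 1 was lower, against 1.73% and 1.13% of all genes. Of the 6 genes of the precursor marker list, 1 was higher, NEUROD1, and their sum was 4678 CPM against 4597, with DLK1 at 3162 against 3621.

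Among Notch genes, the ligand DLL1 was at 97.9 CPM against 290, in 26 of 70 cells and in 72.6% of other cells. It was the only 1 of 9 ligands, receptors and fringe enzymes past 2-fold at D22, where 1.73% of all genes were higher and 1.13% lower. DLL3 was at 305 CPM against 461, JAG1 at 19.8 against 48.4 and NOTCH1 at 26.7 against 43.8. HES1 was at 37.6 CPM against 2.35, with 38 UMIs in 13 cells of which 3 held 52.6%, and HES5 was at 19.8 against 27.8. The cultures of the 3 days had been in DAPT since day 21.

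Of 6 progenitor markers compared at D22, 1 was higher and 1 lower, against 1.73% and 1.13% of all genes. The higher 1 was HES1 as above, compared because of its level in CCNO-positive cells. The lower 1 was SOX2, at 106 CPM against 226. Of the SOX2 UMIs 3 cells held 51.4%, and its log2 ratio against the precursor gate was -0.17. ID4, an inhibitor of proneural factors and no member of that list, was at 113 CPM against 407. General neuronal genes were close at D22, with STMN2 at 1399 CPM against 1285 and DCX at 476 against 399. Of 6 such genes 0 passed 2-fold, near the shares of all genes, 1.73% higher and 1.13% lower. Of 12 patterning factors compared at D22, 0 passed 2-fold, again near those shares, with EMX2 at 465 CPM against 296 and LHX2 at 468 against 235. At D24, 1 of 11 was higher and 3 were lower, against the 8.19% and 18.0% of all genes. EMX2 was found in all 70 cells.

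Genes of the GnRH and GABA lineage had few UMIs in CCNO-positive cells. At D22, DLX1 had 4 UMIs, DLX2 had 2, DLX5 had 1, and GNRH1 and DLX6-AS1 had 0, against 35.9, 23.3, 11.4, 5.94 and 12.1 CPM in other cells. At D22 the list summed to 8.90 CPM in CCNO-positive cells, 14.8 CPM in other cells of the precursor gate and 94.2 CPM in all other cells. At least 2 UMIs of the 3 DLX genes were found in 2 of 70 cells and 10.0% of other cells, and of 4 IRX genes in 1 of 70 and 7.00%. At D24, GNRH1 had 1 UMI in the 10 cells, or 9.94 CPM, against 1133 CPM in other cells, of which 14.4% had a GNRH1 UMI. A GNRH1 UMI was found in 1 of the 10 CCNO-positive cells. The whole list was at 9.94 CPM at D24, against 267 CPM in other cells of the precursor gate.

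Of the Cajal-Retzius list, 2 of 5 genes compared at D22 were higher, against 1.73% of all genes, LHX5 at 97.0 CPM against 35.1 and EBF3 as above. Against the precursor gate their log2 ratios were under 2-fold, at 0.87 and 0.56, and 1 of 5 genes was higher there, LHX1 at 1.02. RELN, which these neurons secrete, was at 29.7 CPM against 16.6, LHX1 at 46.5 against 19.5, and CALB2 at 0. The summed level of the 10 genes was 292 CPM against 129. At D24, with 517 CPM against 434, 2 of 6 were higher, against 8.19% of all genes, and RELN was lower, and against the precursor gate 0 of 7 were higher and 2 lower.

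Markers of several other tissues were at or near 0 in the 70 cells of D22. All 5 neural crest and all 5 choroid plexus markers had 0 UMIs, with summed levels of 1.80 and 0.983 CPM in other cells. The choroid plexus, whose cells bear cilia, is marked by TTR, which had 0 UMIs. The 5 mesenchyme, 4 endothelium and 3 blood markers summed to 0.989, 5.94 and 0.989 CPM. Of 6 epithelial markers, KRT8 had 21 UMIs and KRT19 had 12, at 20.8 and 11.9 CPM against 15.6 and 21.2, and CDH1 had 0. The 6 epithelial markers summed to 41.6 CPM against 45.9, and the 4 pluripotency markers to 51.4 CPM against 62.3, of which DPPA4 made 45.5 CPM. Of 8 immediate early and heat shock genes compared, 0 were lower and 2 higher, against 1.13% and 1.73% of all genes. The 2 were JUNB at 39.6 CPM against 7.30 and IER2 at 120 against 43.3. JUNB was compared because of its level in CCNO-positive cells, and 3 cells held 40.0% of its UMIs, which lay in 18 cells. Of the 7 genes with at least 10 CPM in other cells, 1 was higher. The part of cell handling in this was not tested.

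The D22 cells were also set against the 4660 other cells of the neuronal precursor gate. There 134 of 8188 genes (1.64%) were higher and 22 (0.269%) lower. Of the 10 genes named as lowest at both days, 7 were under 2-fold there. Of 49 genes of the multiciliated lists compared there, 21 were higher, and low genes again entered only by their level in CCNO-positive cells. The log2 ratios of CDC20B, E2F7, CFAP126, TP73 and CDKN1A were 4.37, 4.17, 3.89, 3.12 and 2.05. The proneural factors had 0 of 10 higher, NEUROD1 was under 2-fold at 0.58 and HES6 at 0.72, and 3 of 51 genes of G2 and M phase were lower in place of 22 of 52. GADD45A was under 2-fold at 0.48, DLL1 stayed lower at -1.23, and CDK1 was at 0.95.

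The 10 cells of D24 differed among themselves. The 2 with the most CCNO, at 31 and 20 UMIs, held 12 and 7 UMIs of E2F7, 1 and 4 of CDC20B, and 0 of CDKN1A, TP73 and FOXJ1. The third, with 10 CCNO UMIs, held 3 of E2F7, 3 of CDC20B, 2 of CDKN1A, 2 of TP73 and 1 of FOXJ1. In the 5 cells with at least 4 CCNO UMIs, E2F7 had 28 UMIs and CDC20B 9, and in the 5 cells with 2 they had 3 and 0, at 51301 and 49291 total UMIs. CDKN1A was even between them, with 7 and 5 UMIs. At D24 the CCNO-positive cells had less STMN2, 4483 CPM against 9045, with 162 UMIs in the first 5 cells and 289 in the other 5, and GAP43 was at 636 against 1624. NEUROG1, a factor of precursors, was at 497 CPM against 45.3, and 4 of 10 passed the precursor gate, against 4.71% of other cells. The glutamatergic gate held 7 of 10 of them and 71.7% of other cells. At D22 it had held 16 of 70 (22.9%, interval 13.7 to 34.4%) and 10.4% of other cells, with TBR1, a factor of glutamatergic neurons, at 65.3 CPM against 26 and a log2 ratio of 1.21 against the precursor gate.

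Of the genes lower at both days, the 10 lowest by the larger of the 2 log2 ratios were CDH7, PCSK1, FSTL5, MEIS2, UBE2C, ID4, SFRP1, FGFBP3, UBE2T and DLX6-AS1. At D24, CDH7, PCSK1, UBE2C, SFRP1, FGFBP3, UBE2T and DLX6-AS1 had 0 UMIs in the 10 cells. For these genes being lower at D24 is set by the rule. PCSK1, a prohormone convertase, was at 13.9 CPM against 58.6 at D22 and had 0 UMIs against 46.7 CPM at D24. MEIS2, a homeobox factor, was at 17.8 CPM against 59.5 and at 9.94 against 188, but its D22 ratio against the precursor gate was -0.78. SFRP1, an inhibitor of Wnt, was at 38.6 CPM against 104 at D22, with a ratio of -0.50 against the precursor gate, and had 0 UMIs at D24 against 43.2 CPM.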

How the data were processed

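Single cells were measured with 10x Genomics 3′ chemistry, 1 library for each of 3 days. The authors deposited raw UMI counts per gene and barcode, made with Cell Ranger 3.1 on GRCh38. Kept barcodes had at least 1500 UMIs, at least 1000 genes and a mitochondrial share under 20%, and CCNO-positive cells had at least 2 CCNO UMIs. Doublets were scored with Scrublet in scanpy 1.11.5 and left in. Counts were summed over cells, scaled to CPM and compared as log2 ratios with 10 CPM added, among genes with at least 10 CPM in either group. Intervals are 95% Poisson or Clopper-Pearson and cover counting error only, and they understate the error of genes whose UMIs come from a handful of cells. With 1 library per day there is no replicate, and no test was made.

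The named genes are members of the lists, neighbours of CCNO, and the 15 genes with the largest smaller ratio and the 10 with the lowest larger ratio over the days. That rule was written for 3 days and was applied to D22 and D24, since D26 had 0 CCNO-positive cells. The CCNO-positive cells, the 13 gene lists and the 16 marker lists were chosen with earlier results of these data known. Positions came from GENCODE 44. On data simulated for D22, with 33538 genes, 100 of 100 genes raised 4-fold and 100 of 100 lowered 4-fold were recovered. No gene under 10 CPM in other cells was changed, counts were drawn without spread between cells, and D24 was not simulated. The recovery thus does not cover genes such as CDC20B or CDKN1A, which lay under that level in other cells. Values of some list members are not reported here.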

Additional observations from a re-analysis of the deposited data

Results flagged for a closer look

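CCNO was also counted in data outside the comparisons. The pool of tagged earlier samples held 86 CCNO UMIs in 11718 kept cells, of which 84 cells held 1 UMI and 1 cell held 2, or 0.205 CPM. The kept cells of D26 held 85 CCNO UMIs, all as 1 UMI in a cell, or 0.853 CPM.

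For 4 genes of the lists the direction was opposite at the 2 days, at least 2-fold lower in CCNO-positive cells at D22 and at least 2-fold higher at D24. The difference of the log2 ratios was 2.58 for CDC20, 2.81 for CENPF, 2.56 for SOX2 and 2.95 for TPX2. The difference was not tested. The D24 values rest on 2 UMIs of CDC20, 8 of CENPF, 7 of SOX2 and 4 of TPX2.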

How the results depend on the processing

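Of 135 values under alternative settings, 101 moved little, 34 moved and 0 reversed. Most were counts of genes or shares of cells, which have no sign, and only the CDKN1A ratios could have reversed. Leaving out the limit of 10 CPM could not change a count, since a 2-fold call with 10 CPM added already needs that level in 1 group. The threshold on CCNO moved the most. With at least 3 CCNO UMIs, 184 genes were lower at D22, 1366 higher and 2450 lower at D24 (5 cells), and 99 higher and 43 lower at both days. With at least 1 CCNO UMI, 27 were higher and 11 lower at D22, 34 and 13 at D24, and 11 and 1 at both. There the CDKN1A ratio was 1.12 at D22 and 1.86 at D24, the multiciliated lists had 7 and 5 genes higher, and 1 p53 target was higher at D24. With at least 5 CCNO UMIs, a setting chosen after seeing the data, 225 genes were higher and 215 lower at D22 (44 cells), 1396 and 2871 at D24 (4 cells), and 53 lower at both. Against other cells of like depth, 58 genes were lower at D22. Against the neuronal precursor gate, 22 were lower at D22 and 8 at both, the CDKN1A ratio at D24 was 1.81, and 4 p53 targets were higher at D24. With 1 CPM added, 328 genes were higher and 313 lower at D22, 1044 higher at D24, and 124 higher and 65 lower at both, the CDKN1A ratio was 3.11 and 4.28, and 6 p53 targets were higher at D22. The settings that change the CCNO threshold also change the number of cells, and beyond that the cause was not tested. The shares of CCNO-positive cells moved little under the 3 filters tried. No paired analysis was possible because each day was 1 library.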
